A study of Mus musculus with 48 samples.

Results

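The data set 3 Ba/F3 clones carrying the Rps15 P131S mutation against 3 wild-type (WT) clones, and take in 12 of the 48 libraries of the series. The 12 were chosen by their genotype labels and are 6 RNA-seq and 6 ribosome footprint libraries, 1 of each kind per clone. The P131S clones are numbered 24, 63 and 20, and their genotype label, P131S/P131S, names the mutation on both alleles. The WT clones are numbered 3, 2 and 1. Ba/F3 cells are an immortal mouse line of pro-B origin that depends on interleukin 3, and clones of both genotypes received 1 ng/ml of it and, ahead of lysis, 0.1 mg/ml cycloheximide for 1 min. The series holds 6 other genotypes of 3 clones each: the second Rps15 mutation H137Y, used once below, and 5 with changes in large-subunit proteins. These entered every fit, which shares 1 estimate of the spread over all genotypes, and they supply ranges of levels and a reference ratio of footprints to RNA. Nothing in the labels says whether clones of a genotype were cultured or sequenced on separate days. Every p-value thus rests on the spread between clones within genotypes, pooled over all genotypes and not only over P131S and WT.

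Rps15 is a protein of the head of the small ribosomal subunit, and its C-terminal tail lies near the site where the transfer RNA reads the codon. P131S changes that tail and is one of the RPS15 substitutions that recur in chronic lymphocytic leukaemia. A ribosome protects a short piece of the messenger RNA it is translating from nuclease, and counting such footprints per gene measures how much the gene is translated. Footprints set against the RNA of the same gene give its translational efficiency, called efficiency here.

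Levels are given in CPM, a gene's count as a share of its library, after scaling by trimmed mean of M values (TMM), and clones always stand in the order 3, 2, 1 for WT and 24, 63, 20 for P131S. Changes are log2 of P131S over WT with a standard error (SE). A gene was called where the adjusted p of edgeR's quasi-likelihood test, corrected by Benjamini-Hochberg over all genes tested, was under 0.05, and only called genes are said to have risen or fallen. RNA libraries held between 25317713 and 27470910 estimated counts in WT and between 26532879 and 32750439 in P131S. Footprint libraries held between 46806204 and 71443928 in WT and between 47265211 and 55389029 in P131S. The median gene had an SD between clones, on the log2 CPM scale, of 0.08 in WT RNA, 0.159 in P131S RNA, 0.187 in WT footprints and 0.234 in P131S footprints.

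Rps15 itself (ENSMUSG00000063457, chr10:80292431-80294114, GRCm38.p6) was measured first. Its RNA level was 1455, 1433 and 1446 CPM in the WT clones and 907, 1825 and 1935 CPM in the P131S clones. P131S clone 24 lay below every WT clone and the other P131S clones above them, so the groups overlapped, with a change of 0.11 (SE 0.25, adjusted p = 0.757). Its footprints were 595, 396 and 460 CPM in WT and 243, 426 and 693 CPM in P131S, a change of -0.09 (SE 0.29, adjusted p = 0.883). Gene totals do not show the base at the mutated codon, so they carry no check of the substitution itself.

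Most lineage markers of a committed B cell were at or near 0 in both genotypes. The B-cell transcription factors Ebf1 and Pax5 did not exceed 0.0334 and 0.119 CPM of RNA in any of the 6 clones. The RNA of Rag1, Rag2, Igll1 and Dntt, which act in antigen receptor rearrangement and pre-B receptor assembly, was at 0 in all 6. Ptprc, the leukocyte antigen CD45, was at 230 to 258 CPM in WT and 182 to 286 CPM in P131S. Il3ra, the alpha chain of the interleukin 3 receptor, was at 26.1 to 28.4 CPM in WT and 28.7 to 33.2 CPM in P131S. Cd79b, a chain of the B-cell receptor complex, was present at 5.92 to 9.91 CPM in WT and 3.34 to 4.87 CPM in P131S. Of the markers of other cells, Cd3e, Cd4 and Cd8a of T cells and Kit of mast cells were at 0 RNA in all 6 clones. Others were present: the macrophage marker Adgre1 at 140 to 165 CPM in WT and at least 77 CPM in P131S, the globin Hba-a1 at 15.4 to 41.5 CPM in WT and 9.74 to 26.7 CPM in P131S, and the mast cell gene Cpa3 at 15.8 to 46.3 CPM in WT and 97 to 239 CPM in P131S. Cd3g, of the T-cell receptor complex, was at 12.9 CPM in P131S clone 20 and at most 0.0686 CPM in the other 5 clones. Summed RNA over the 32 B-lymphoid genes was 616 to 667 CPM in WT and 606 to 677 CPM in P131S.

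The first comparison asks which messages differ in amount between P131S and WT. Of 12814 genes tested in RNA, 6024 were called, which is 47%: 3031 higher in P131S (23.7% of genes tested) and 2993 lower (23.4%). Most of these changes were small. The median called gene moved by 0.5 on the log2 scale, 3615 called genes moved by less than 1.5-fold, and 1071 moved by at least 2-fold, 412 of them upward and 659 downward. Clones did not overlap between the genotypes in 57.2% of genes tested in RNA. In 17.5% all 3 P131S clones lay outside the range of the 18 clones without an Rps15 mutation. The WT clones too stood apart for some genes: set against the 15 clones of the large-subunit genotypes, all 3 WT clones lay outside their range in 635 genes of RNA (4.96%) and 89 of footprints (0.549%), and all 3 P131S clones in 2302 (18%) and 1156 (7.13%). The even split of higher and lower calls rests on the scaling: with total counts in place of TMM, an alternative added after seeing the data, the median of all genes moved by -0.16 and the calls became 1665 higher and 4570 lower. Changes below are relative to the TMM scale, and lists whose main count moved by over 1.5 times, or whose median turned sign, have that value beside them.

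In footprints, 16217 genes were tested and 2707 were called, 16.7%, with 1365 higher in P131S (8.42%) and 1342 lower (8.28%). The median called change was 0.77, and 900 genes moved by at least 2-fold, 324 upward and 576 downward. Clones did not overlap in 36% of genes tested, and in 6.92% the P131S clones lay outside the range of the 18 clones without an Rps15 mutation. With total counts the median of all genes moved by -0.20 and the footprint calls became 697 higher and 2422 lower. Of the 12074 genes tested at both levels, 1934 were called at both, and 1871 of these (96.7%) moved in the same direction. A further 3938 were called in RNA alone and 678 in footprints alone.

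**Figure D1:**
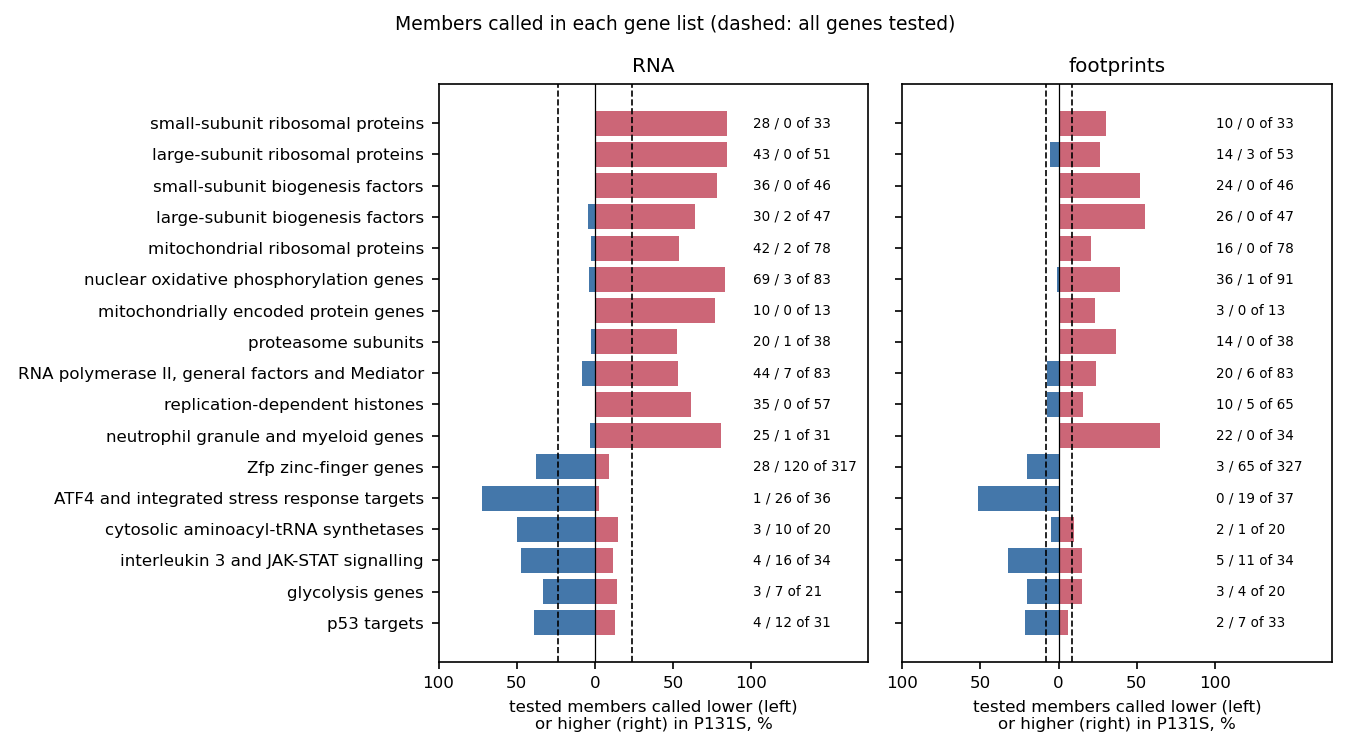
Percent of the tested members of each gene list called higher (right) or lower (left) in P131S, in RNA (left panel) and in footprints (right panel), with the counts printed at the right as higher / lower of tested. Dashed lines are the share of all genes tested, 23.7% and 23.4% in RNA and 8.42% and 8.28% in footprints. Biogenesis factors, oxidative phosphorylation and myeloid genes extend to the right of the line at both levels, and ATF4 targets to the left.

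Ribosome biogenesis factors were higher in P131S more often than genes in general. Ribosome assembly needs a large set of nucleolar factors that cut, fold and export the ribosomal RNA. Of 46 small-subunit biogenesis factors tested in RNA, 36 rose and 0 fell, with a median change of 0.38 beside -0.01 for all genes, and 24 rose and 0 fell in footprints (median 0.49, beside -0.04 for all genes). Under total counts 23 rose and 3 fell in RNA. Of 47 large-subunit biogenesis factors, 30 rose and 2 fell in RNA (median 0.35), and 26 rose and 0 fell in footprints (median 0.49). For the latter the count was 16 without P131S clone 20 and 14 with total counts, and 20 rose and 4 fell in RNA with total counts. Bop1, of the PeBoW complex of large-subunit maturation, was at 74.9, 80.4 and 83.8 CPM of RNA in WT and 130, 136.9 and 178 CPM in P131S (change 0.90, SE 0.10, adjusted p = 1.08e-06). Mdn1, the ATPase that strips factors from the pre-60S particle, was at 53.9, 58.6 and 58.9 CPM in WT and 97.2, 114 and 170 CPM in P131S (1.15). Nat10, the RNA cytidine acetyltransferase of the nucleolus, had footprints of 135, 149 and 168 CPM in WT and 234, 258 and 392 CPM in P131S (0.97, SE 0.16, adjusted p = 0.000474). Clone 20 was the highest of the 3 P131S clones for each of these genes, and no P131S clone overlapped WT.

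Among the small-subunit ribosomal proteins, 28 of 33 rose in RNA and 0 fell, with a median change of 0.28, but 9 rose under total counts (median 0.12). In their footprints 10 of 33 rose and 0 fell (median 0.32), with 4 without P131S clone 20 and 5 under total counts. Of 51 large-subunit ribosomal proteins tested in RNA, 43 rose and 0 fell (median 0.29), while under total counts 15 rose and 1 fell. In footprints 14 of 53 rose and 3 fell (median 0.30), with 8 and 3 under total counts. Summed RNA of the small-subunit list was 52842 to 53708 CPM in WT and 63247 to 69792 CPM in P131S. Rplp0, of the stalk that recruits elongation factors, rose from 5328, 5207 and 5257 CPM to 7803, 7792 and 8367 CPM (0.60, SE 0.06, adjusted p = 1.29e-07). The lowest of the 18 clones without an Rps15 mutation was WT clone 2 and the highest was at 7693 CPM. Ribosomal protein genes have many processed pseudogenes, and how reads were shared among such copies is not given in the sources used here.

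Translation initiation and elongation factors gave 31 higher and 8 lower of 66 in RNA (median 0.18), and 19 higher and 2 lower of 70 in footprints (median 0.20). With total counts these became 19 higher and 16 lower in RNA (median 0.01), and 9 higher and 6 lower in footprints, where the median turned to -0.01. Eif5a, which relieves ribosomes stalled at difficult peptide bonds, was at 1598, 1694 and 1626 CPM of RNA in WT and 2477, 2368 and 2976 CPM in P131S (0.67). Eif6, which keeps the subunits apart until the large one matures, rose by 0.61 in RNA and 0.84 in footprints. Cytosolic aminoacyl-tRNA synthetases, the enzymes that charge transfer RNAs, went mostly the other way in RNA: 3 rose and 10 fell of 20 (median -0.31), with 6 falls without P131S clone 24 or without clone 63, and 1 rise and 16 falls under total counts. Sars, the seryl-tRNA synthetase, fell from 319, 298 and 308 CPM to 186, 155 and 158 CPM (-0.89, SE 0.15, adjusted p = 0.000103). In their footprints 2 rose and 1 fell (median -0.12).

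Enzymes that modify transfer RNA and factors that rescue stalled ribosomes act at the decoding step. Of 65 modification enzymes, 23 rose and 12 fell in RNA (median 0.01), and 16 rose and 21 fell under total counts (median -0.16). Trmt61a, the catalytic subunit of the methyltransferase for adenosine in transfer RNA, was at 6.33, 6.5 and 7.17 CPM in WT and 13.1, 14.9 and 24.7 CPM in P131S (1.4), and its partner Trmt6 rose by 0.74. Of 39 rescue and decay factors, 14 rose and 9 fell in RNA (median 0.11), with 6 and 13 under total counts. For both lists the share of all genes tested in RNA was 23.7% higher and 23.4% lower. Zfp598, the ubiquitin ligase that marks collided ribosomes, rose in RNA from 66.9, 66.7 and 68.6 CPM to 96.3, 98.6 and 119 CPM (0.63, SE 0.07, adjusted p = 7.42e-07), while its footprints changed by -0.18 and were not called. Edf1, which binds collided ribosomes with it, rose by 0.46 in RNA and 0.87 in footprints.

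Among respiratory genes, far more rose than fell, although most were not called in footprints. Nuclear genes of oxidative phosphorylation, the respiratory chain and ATP synthase, gave 69 higher and 3 lower of 83 in RNA (median 0.37) and 36 higher and 1 lower of 91 in footprints (median 0.34). Under total counts there were 41 higher and 5 lower in RNA, and 15 higher and 3 lower in footprints. Uqcrq, a subunit of complex III, was at 256, 256 and 243 CPM of RNA in WT and 378, 359 and 392 CPM in P131S (0.58, SE 0.08, adjusted p = 9.54e-06), and its footprints rose by 1.16. All 3 P131S clones were above the highest of the 18 clones without an Rps15 mutation, 322 CPM. Cox6a2, the muscle-type subunit of complex IV, fell by 2.93 in RNA. Of the 13 genes encoded in the mitochondrion itself, 10 rose and 0 fell in RNA (median 0.62). CYTB, the cytochrome b of complex III, went from 1937, 1910 and 1964 CPM to 3973, 3953 and 4619 CPM (1.11, SE 0.15, adjusted p = 1.09e-05). Footprints of this list gave 3 higher (CYTB, ND5 and ND2) and 0 lower, and 0 of either under total counts. All of these footprint calls were also lost with no filter, without P131S clone 20 or 63, and without WT clone 1 or 3. Mitochondrial ribosomal proteins gave 42 higher and 2 lower of 78 in RNA (median 0.23). With total counts these were 25 and 8. Their footprints gave 16 higher and 0 lower of 78 (median 0.18), 8 higher without P131S clone 20 or without WT clone 3, and 4 higher and 8 lower under total counts, where the median turned to -0.02. Mrpl36 was at 46.1, 50.0 and 48.9 CPM in WT and 93.4, 89.6 and 113 CPM in P131S (1.03, SE 0.09, adjusted p = 1.02e-07).

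Listed targets of ATF4 were lower in P131S. ATF4 is the transcription factor of the integrated stress response: when initiation factor eIF2 is phosphorylated, upstream reading frames in the Atf4 message let its coding region be translated, and ATF4 then switches on amino acid synthesis, transport and transfer RNA charging. Of 42 listed targets, 36 were tested in RNA, where 26 fell and 1, Atf4, rose (median -0.65), and 19 of 37 fell and 0 rose in footprints (median -0.51). Summed RNA of the list was 7701 to 7804 CPM in WT and 5224 to 6213 CPM in P131S. A motif search for the C/EBP-ATF composite element, TGATGNAA on either strand, within 250 bases before the RefSeq start found it in 8 of the 31 listed genes that were tested and have a promoter in the table (25.8%), against 2.32% of 9339 genes tested in RNA. A pair of these promoters is shown because both genes fell, Pycr1 (chr11:120643749-120643998) and Asns (chr6:7693210-7693459), each on the minus strand of GRCm38.p6 and printed 5′ to 3′ with the match in capitals.
Pycr1: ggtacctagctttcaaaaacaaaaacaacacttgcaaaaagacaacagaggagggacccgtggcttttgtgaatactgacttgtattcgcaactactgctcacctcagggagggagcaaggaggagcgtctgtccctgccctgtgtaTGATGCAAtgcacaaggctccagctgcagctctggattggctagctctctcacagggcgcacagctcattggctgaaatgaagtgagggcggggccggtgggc
Asns: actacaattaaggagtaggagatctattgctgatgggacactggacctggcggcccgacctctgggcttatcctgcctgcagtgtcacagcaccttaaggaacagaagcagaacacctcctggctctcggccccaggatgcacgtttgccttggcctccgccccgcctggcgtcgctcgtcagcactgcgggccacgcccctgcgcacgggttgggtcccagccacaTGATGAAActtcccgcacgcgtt

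Atf4 itself (chr15:80255184-80257545) moved in opposite directions at the 2 levels. Its RNA was at 418, 421 and 418 CPM in WT and 502, 512 and 626 CPM in P131S (0.38, SE 0.15, adjusted p = 0.0408). Its footprints were at 111, 131.3 and 142 CPM in WT and 81.7, 90.8 and 98 CPM in P131S (-0.51, SE 0.17, adjusted p = 0.045). Clones did not overlap at either level, and its efficiency fell by 0.91 (SE 0.23, adjusted p = 0.0208). These are calls near the threshold: 7 of 13 alternatives ended the RNA call, 6 of 13 the footprint call and 5 of 15 the efficiency call. Whether coding regions or whole transcripts were counted is not given, so footprints on the upstream reading frames may be part of the Atf4 total. How much its coding region alone was translated cannot be read from these values.

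Ddit3 (chr10:127290793-127296291), the pro-apoptotic factor CHOP, fell in RNA from 35.9, 25.2 and 28.1 CPM to 5.46, 4.04 and 2.84 CPM (-2.86, SE 0.32, adjusted p = 1.89e-06) and by 2.6 in footprints. Trib3, a pseudokinase that restrains Akt and ATF4, went from 89.8, 72.5 and 75.1 CPM to 23.9, 14.5 and 15.0 CPM (-2.15, SE 0.35, adjusted p = 0.000107). Ddit4, an inhibitor of mTORC1, went from 78.9, 64.6 and 67.0 CPM to 20.5, 15.9 and 10.7 CPM (-2.16, SE 0.19, adjusted p = 1.29e-07). All 3 genes lie downstream of ATF4 and act in stress signalling. The synthesis enzymes fell too. Asns, asparagine synthetase, had RNA of 301, 308 and 298 CPM in WT and 134, 120 and 165 CPM in P131S (-1.12, SE 0.28, adjusted p = 0.00321), and footprints of 769, 637 and 784 CPM in WT and 359, 303 and 393 CPM in P131S (-1.05). Pycr1, of proline synthesis, was at 27.2, 26.8 and 27.2 CPM in WT and 11.1, 8.71 and 9.60 CPM in P131S (-1.46, SE 0.18, adjusted p = 2.8e-06). Cebpg, the dimer partner of ATF4, fell from 100, 95.3 and 97.5 CPM to 46.0, 44.3 and 49.5 CPM in RNA (-1.07), while its footprints changed by -0.43 and were not called (adjusted p = 0.293). Asns, Pycr1 and Trib3, and Slc1a4 in the plot, were picked after their values were seen.

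WT clones held the end of the range away from P131S for several genes, so that for these a level particular to WT and an effect of P131S cannot be told apart from this contrast alone. Genes for which a WT clone was the lowest of the 18 clones without an Rps15 mutation include Rplp0, Bop1, Eif5a, Mrpl36, CYTB, Zfp598, Jun, Jund, Csf2rb2, Taf7 and Hspa8. Genes for which a WT clone was the highest of the 18 include Sars, Pim2, Mecom, Dusp6, Zfp322a and Myc. These are examples, and other genes described here can share the limit. Among the 18 clones without an Rps15 mutation, Asns ran from 76.9 CPM to its highest value of 308 CPM in WT clone 2, so the P131S clones lay inside that range. For Ddit3 the lowest of the 18 clones was at 9.78 CPM and for Cebpg at 53.2 CPM, and every P131S clone lay below these. Trib3 reached down to 19.5 CPM in the 18 clones, with P131S clone 24 above that value and clones 63 and 20 below it.

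**Figure D2:**
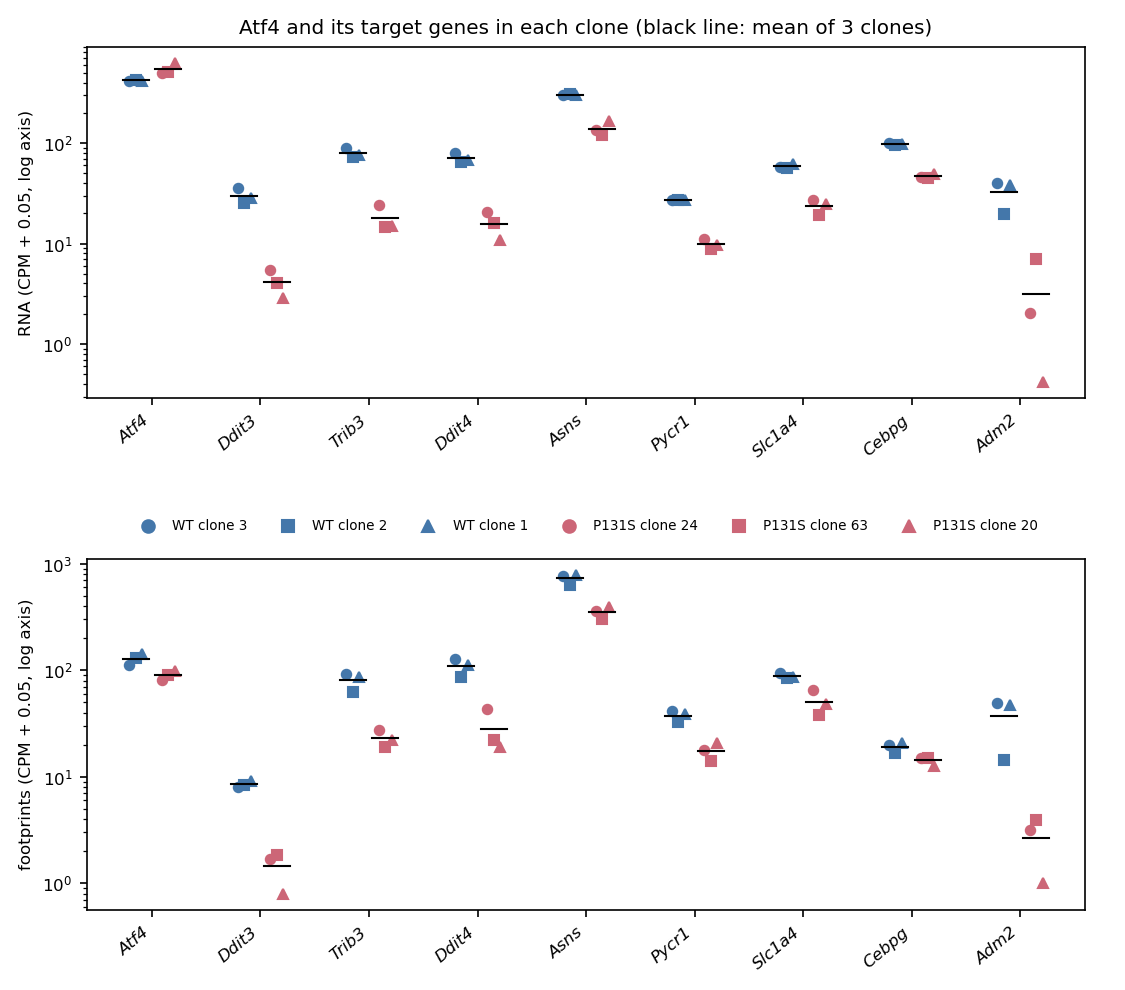
RNA (upper panel) and footprint (lower panel) level of Atf4 and 8 of its targets in each clone, as CPM + 0.05 on a log axis, with WT and P131S side by side and the mean of 3 clones as a black line. Atf4 is higher in P131S in RNA and lower in footprints, and Ddit3, Trib3, Ddit4, Asns and Pycr1 lie lower in every P131S clone at the RNA level.

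Granule and other myeloid genes showed the largest rises. Neutrophil granule proteins, calprotectin subunits and the mouse stefins are made by maturing granulocytes. Of 37 listed genes in the table, 31 passed the filter in RNA, where 25 rose and 1 fell, with a median change of 4.18, and 22 of 34 rose and 0 fell in footprints (median 4.29), or 12 when only the P131S and WT libraries entered the fit. Members that passed the filter only through clones in which they were high had to differ, so these counts describe the list and do not support it. Summed RNA of the 37 genes was 678, 909 and 663 CPM in the WT clones and 4004, 8522 and 2193 CPM in the P131S clones, and 10, 6 and 7 members were at 0 in WT and 3, 2 and 4 in P131S. In a bulk culture, more cells of a type and more RNA per cell cannot be told apart.

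S100a8 (chr3:90669071-90670034), a calprotectin subunit, was at 3.05, 37.8 and 12.2 CPM of RNA in WT and 440, 982 and 196 CPM in P131S (4.93, SE 1.10, adjusted p = 0.00167), and its footprints rose by 4.68. Mmp8, the neutrophil collagenase, was at 0.377, 3.13 and 0.480 CPM in WT and 39.0, 132 and 12.7 CPM in P131S (5.51, SE 1.13, adjusted p = 0.000838). Ms4a3 (chr19:11629499-11640851), a marker of granulocyte-monocyte progenitors, was at 0.0377, 1.46 and 0.480 CPM in WT and 23.8, 56.9 and 26.7 CPM in P131S (5.74, SE 0.90, adjusted p = 8.14e-05). The order of the clones was alike for all 3 genes at the top: WT clone 2 was the highest WT clone and P131S clone 63 the highest P131S clone. For S100a8 the 18 clones without an Rps15 mutation reached 121 CPM, and for Ms4a3 2.38 CPM, below every P131S clone in both cases. Cstdc5, of the stefin cluster, was at 1.51, 15.8 and 5.25 CPM in WT and 345, 1221 and 152 CPM in P131S (6.24, SE 1.05, adjusted p = 0.000151). Stfa1, a cysteine protease inhibitor of the same cluster, was at 0.490, 4.16 and 1.37 CPM in WT and 89.7, 251 and 48.5 CPM in P131S (6.00). Stefin genes are near-identical neighbours, so how their reads were divided among them is uncertain. Chil3, a chitinase-like secreted protein, was at 0, 0.107 and 0.0686 CPM in WT and 5.08, 15.2 and 2.71 CPM in P131S.

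Several mast cell and cytotoxic granule genes rose as well. Gzmb, the serine protease granzyme B, was at 149, 95.8 and 23.0 CPM in WT and 1265, 2106 and 894 CPM in P131S (3.99, SE 1.01, adjusted p = 0.00416), although the 18 clones without an Rps15 mutation reached 929 CPM, above P131S clone 20. Cpa3, the mast cell carboxypeptidase, was at 46.3, 42.6 and 15.8 CPM in WT and 103, 239 and 97.0 CPM in P131S (2.07, SE 0.65, adjusted p = 0.015). Cd200r3, a receptor of basophils and mast cells, was at 0.226, 0.355 and 0 CPM in WT and 14.1, 54.1 and 20.2 CPM in P131S. Srgn, the core protein that packs granule contents, rose from 271, 270 and 253 CPM to 643, 770 and 466 CPM (1.24, SE 0.15, adjusted p = 2.16e-06). All of these lie in granules or on granulated cells.

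Defining genes of neutrophils differed in level. Csf3r, the receptor for granulocyte colony-stimulating factor, was at 0 RNA in all 6 clones, and Elane, the neutrophil elastase, did not exceed 0.201 CPM. Ly6g, the surface marker of mature neutrophils, was at most 0.0355 CPM in WT and ran from 0.0334 to 0.673 CPM in P131S. Mpo, myeloperoxidase, was at 0.0377, 1.21 and 1.34 CPM in WT and 1.93, 3.21 and 0.569 CPM in P131S and was not called (1.12, adjusted p = 0.424). Prtn3, proteinase 3, was present in both genotypes, at 30.8 to 39 CPM in WT and 22.6 to 55.4 CPM in P131S, and was not called (0.19, adjusted p = 0.643). Ltf, lactoferrin, ran from 1.28 to 16.7 CPM in WT and from 17.8 to 308 CPM in P131S (4.12, adjusted p = 0.00813), and Ctsg, cathepsin G, reached 0.497 CPM in WT and 16.3 CPM in P131S. Mmp9, the gelatinase, was the member that fell (-1.04, SE 0.32, adjusted p = 0.0113). Spi1, the transcription factor PU.1 of myeloid and B cells, rose in RNA from 65.2, 62.6 and 61.0 CPM to 110, 119 and 81.5 CPM (0.72, SE 0.13, adjusted p = 0.000158), and its footprints, changed by 0.51, were not called. Mpo, Elane, Prtn3, Ltf and Spi1 were picked after their values were seen. The marker list of mast cells and basophils, 11 genes, summed to 442 to 475 CPM of RNA in WT and 433 to 582 CPM in P131S, with Kit at 0. In footprints the same list summed to 123 to 205 CPM in WT and 319 to 867 CPM in P131S. In RNA 2 of its 4 tested members rose and 1 fell, and Mcpt8, a basophil protease, was at 0, 0.32 and 0.0343 CPM in WT and 4.29, 37.6 and 1.67 CPM in P131S. Its part in the change of the granule genes was not tested.

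A search of the 250 bases before the RefSeq start for the C/EBP element TTGCNNCA, on either strand, found it in 6 of 26 listed myeloid genes with a promoter in the table (23.1%) and in 9.87% of genes tested in RNA. It was also present in 11 of 31 ATF4 targets (35.5%), and the composite TGATGCAA, read on the other strand, matches both patterns. S100a8 (chr3:90668821-90669070, plus strand) and Ms4a3 (chr19:11640852-11641101, minus strand) are shown because each holds the pattern at 2 places and both genes rose. Capitals mark the matches.
S100a8: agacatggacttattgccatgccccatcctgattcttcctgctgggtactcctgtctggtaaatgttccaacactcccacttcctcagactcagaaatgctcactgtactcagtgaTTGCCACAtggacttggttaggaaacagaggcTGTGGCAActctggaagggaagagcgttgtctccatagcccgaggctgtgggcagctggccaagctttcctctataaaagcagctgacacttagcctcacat
Ms4a3: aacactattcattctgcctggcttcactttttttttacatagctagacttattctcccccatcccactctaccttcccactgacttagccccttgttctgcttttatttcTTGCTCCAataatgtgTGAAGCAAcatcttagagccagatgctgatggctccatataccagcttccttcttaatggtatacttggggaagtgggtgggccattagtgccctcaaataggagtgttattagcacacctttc

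**Figure D3:**
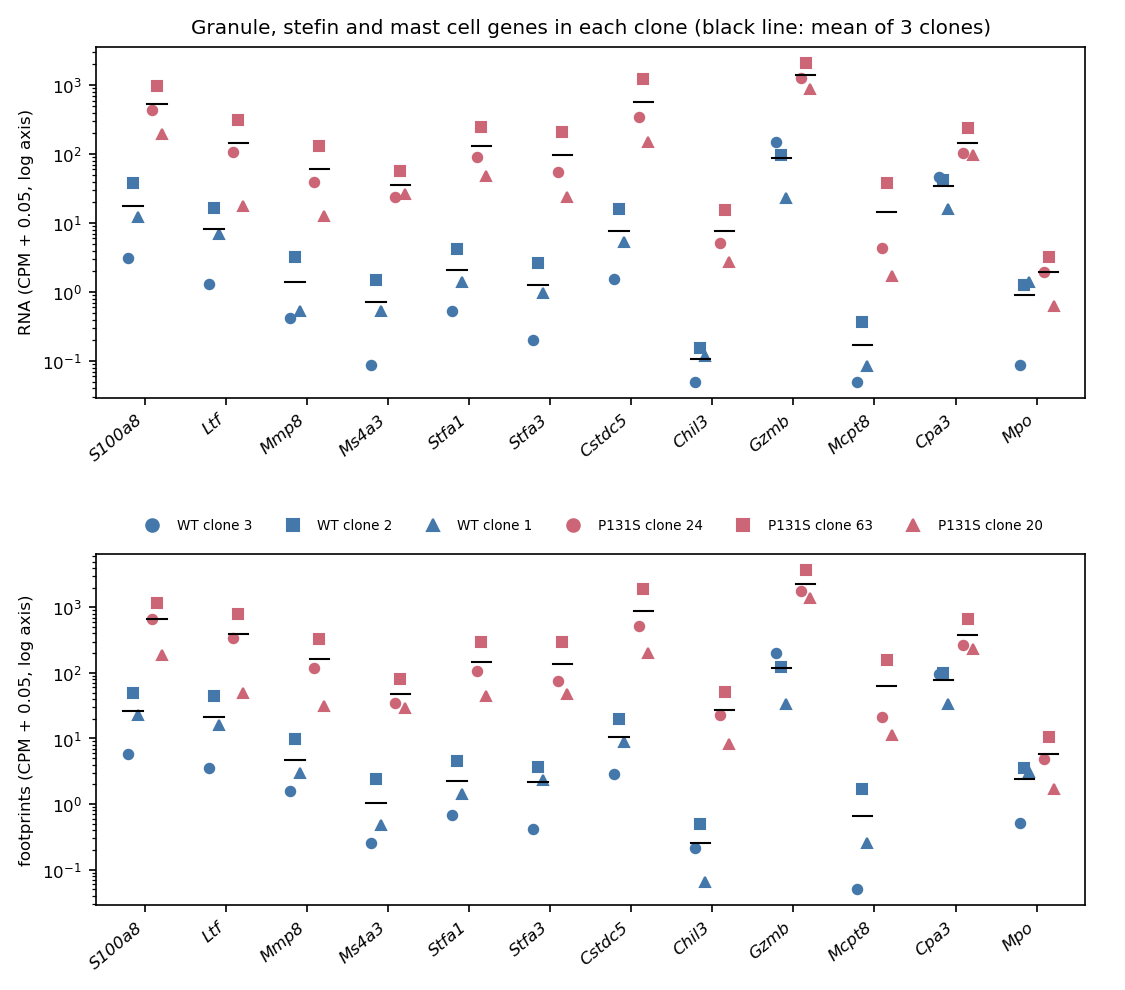
RNA (upper panel) and footprint (lower panel) level of 12 granule, stefin and mast cell genes in each clone, as CPM + 0.05 on a log axis, with the mean of 3 clones as a black line. P131S clone 63 is the highest clone for most genes, and Mpo, at the right, is the gene whose groups overlap in RNA.

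Interleukin 3 signals through a receptor that shares the beta chain Csf2rb, and through JAK2 and STAT5 to Pim, Cish and Socs genes. Of 34 genes of that pathway tested, 4 rose and 16 fell in RNA (median -0.11) and 5 rose and 11 fell in footprints (median -0.25), with 6 falls in footprints without P131S clone 20. The receptor chain rose: Csf2rb (chr15:78325800-78351001) was at 534, 577 and 479 CPM of RNA in WT and 1324, 1720 and 1530 CPM in P131S (1.52, SE 0.22, adjusted p = 3.01e-05). Every P131S clone exceeded the 1058 CPM that was the highest of the 18 clones without an Rps15 mutation. Csf2rb2, its close paralog, went from 434, 435 and 369 CPM to 877, 1092 and 1068 CPM (1.29, SE 0.21, adjusted p = 0.0001), and reads of the 2 genes may not be fully separable. Osm, a cytokine induced by this pathway, rose from 43.1, 49.0 and 48.8 CPM to 150, 164 and 100 CPM (1.55).

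Pim2, a survival kinase, went from 451, 386 and 409 CPM to 83.3, 62.0 and 25.5 CPM (-2.87, SE 0.31, adjusted p = 1.99e-06), below the 217 CPM that was the lowest of the 18 clones. Bcl2l1, which encodes the anti-apoptotic Bcl-xL, went from 71.2, 63.4 and 72.1 CPM to 41.3, 35.7 and 38.9 CPM (-0.83, SE 0.12, adjusted p = 1.07e-05). Jak2 (chr19:29251803-29313095), the kinase bound to the beta chain, differed by level. Its RNA was at 120, 117 and 108 CPM in WT and 105, 136.6 and 97.4 CPM in P131S (-0.02, adjusted p = 0.897), while its footprints were at 11.9, 12.7 and 12 CPM in WT and 2.11, 5.01 and 2.35 CPM in P131S (-1.95, SE 0.37, adjusted p = 0.0011). Myc, picked after its values were seen, fell in RNA from 375, 383 and 381 CPM to 258, 204 and 121 CPM (-0.97, SE 0.18, adjusted p = 0.000263), and its footprints, changed by -0.34, were not called.

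Immediate early genes moved in both directions. Of 29 tested in RNA, 9 rose and 10 fell, beside 23.7% higher and 23.4% lower of all genes tested. The falls were 6 without P131S clone 20, WT clone 1 or WT clone 3. Several members of the AP-1 transcription factor were among those that rose. Jun (chr4:95049036-95052222) was at 46.7, 35.6 and 35.4 CPM of RNA in WT and 131.2, 126 and 118 CPM in P131S (1.67, SE 0.18, adjusted p = 1.16e-06), and at 21.0, 13.9 and 14.1 CPM of footprints in WT and 111, 95.2 and 85.5 CPM in P131S (2.57, SE 0.23, adjusted p = 1.37e-06). Jund rose from 205, 190 and 199 CPM to 578, 511 and 386 CPM of RNA (1.31, SE 0.12, adjusted p = 1.02e-07), and Fosb and Fosl1 by 2.59 and 1.56. Neither Jun nor Jund reached these levels in the 18 clones without an Rps15 mutation, where the highest values were 64.3 and 354 CPM. Dusp6, the phosphatase that switches off ERK, fell from 114, 106 and 104 CPM to 44.2, 34.5 and 20.7 CPM (-1.71, SE 0.17, adjusted p = 3.11e-07), and Dusp4, of the same family, by 1.99, while Dusp2, another such phosphatase, rose by 1.51. Egr3, an early zinc-finger factor, fell by 2.52.

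Genes under p53, the factor that nucleolar stress is known to stabilise, did not rise as a group: 4 rose and 12 fell of 31 in RNA (median -0.27), and 2 rose and 7 fell of 33 in footprints (median -0.28). Cdkn1a, the cell cycle inhibitor p21, changed by -0.08 (adjusted p = 0.728), Mdm2, the ligase that degrades p53, by -0.16 (adjusted p = 0.3) and Trp53 by 0.20 (adjusted p = 0.144). These 3 were picked after their values were seen and none was called in RNA. Plk3, a stress-responsive polo kinase, rose from 4.75, 5.54 and 5.08 CPM to 22.0, 22.9 and 17.7 CPM (2.02). Trp53inp1, a p53 cofactor, fell from 28.6, 24.0 and 27.0 CPM to 11.1, 7.80 and 10.1 CPM (-1.46).

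The largest falls belonged to genes without a shared list. Dmpk (chr7:19083646-19093821), the kinase whose repeat expands in myotonic dystrophy, went from 61.6, 40.4 and 76.0 CPM of RNA to 0.949, 0.119 and 0.167 CPM (-7.18, SE 0.43, adjusted p = 8.21e-09), and its footprints fell by 6.73. No clone without an Rps15 mutation was below 33.8 CPM. Arnt2, a bHLH-PAS transcription factor, was at 52.2, 12.6 and 16.1 CPM in WT and 0.0759, 0 and 0 CPM in P131S. Hsd3b7, of bile acid synthesis, was at 12.7, 8.56 and 11.8 CPM in WT and 0.721, 0.713 and 1.14 CPM in P131S (-3.66). Itga6, an integrin of progenitor cells, fell from 22.1, 13.0 and 18.1 CPM to 3.41, 2.06 and 1.37 CPM (-2.96, SE 0.30, adjusted p = 6.28e-07). St3gal2, a sialyltransferase, fell from 242, 201 and 244 CPM to 70.6, 45.3 and 42.0 CPM (-2.12, SE 0.19, adjusted p = 1.63e-07). Mecom, the zinc-finger factor EVI1 of early haematopoiesis, fell from 480, 456 and 471 CPM to 235, 166 and 151 CPM (-1.35, SE 0.17, adjusted p = 6.11e-06), and by 1.77 in footprints. Clones did not overlap for any of these genes. This was a condition for naming genes by the largest change, and it held for 5809 of the 6024 RNA calls. Tnfaip3, the brake on NF-kappaB also called A20, fell from 8.44, 6.04 and 7.92 CPM to 2.58, 2.69 and 1.57 CPM in RNA (-1.71) and by 2.83 in footprints.

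Zinc-finger genes of the Zfp series, most of them repressors of transcription, were lower on balance. Of 317 tested in RNA, 28 rose and 120 fell (median -0.24), or 14 and 159 under total counts, and of 327 tested in footprints 3 rose and 65 fell (median -0.62), with 34 falls without P131S clone 20 and 38 without WT clone 1. Zfp322a fell from 33.3, 31.0 and 30.0 CPM to 13.5, 14.1 and 12.8 CPM (-1.22, SE 0.08, adjusted p = 1.47e-09). Zfp296, of pluripotent and lymphoid cells, rose from 4.48, 3.59 and 4.25 CPM to 13.2, 12.7 and 13.5 CPM (1.68). RNA polymerase II subunits, general factors and Mediator gave 44 higher and 7 lower of 83 in RNA (median 0.25), and 25 and 20 under total counts. Their footprints gave 20 higher and 6 lower (median 0.10), and 11 higher and 15 lower under total counts, where the median turned to -0.11. Taf7, a subunit of TFIID, was at 21.9, 20.2 and 19.6 CPM in WT and 45.4, 45.3 and 44.0 CPM in P131S (1.13).

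Protein folding and degradation genes leaned upward. Proteasome subunits gave 20 higher and 1 lower of 38 in RNA (median 0.21) and 14 higher and 0 lower in footprints (median 0.23), with 8 and 6 in RNA and 6 and 3 in footprints under total counts. Chaperones gave 29 higher and 11 lower of 66 in RNA (median 0.16), but 14 higher and 18 lower under total counts, where the median turned to 0 or just under it. In their footprints 20 rose and 5 fell (median 0.15), and 11 of each were called under total counts, with a median of -0.05. Hspa8, the constitutive Hsp70, rose under both scalings, from 978, 1075 and 1055 CPM to 1883, 2212 and 2899 CPM (1.17, SE 0.11, adjusted p = 1.94e-07), and by 1.48 in footprints.

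The efficiency comparison asks which genes carried more or fewer footprints than their RNA accounts for. Of 16568 genes tested, 520 were called (3.14%), 146 with higher efficiency in P131S (0.881%) and 374 with lower (2.26%). The median called gene moved by 0.86, and 197 moved by at least 2-fold, 28 upward and 169 downward. The share of higher calls depended on the fit: it was 28.1% here, 41.1% of 908 calls by DESeq2, 39.7% of 878 calls from log ratios per clone, 38.9% of 637 calls with a stricter filter and 16.2% of 320 calls with no filter. With the clone as a replicate block, which pairs the RNA and footprint library of each clone, 806 genes were called, 299 higher and 507 lower, and 482 of the 520 were among them. Leaving out 1 clone moved the count by over 1.5 times for P131S clone 20 (238 calls) and for WT clones 1 (230), 2 (306) and 3 (254).

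Lower efficiency means a footprint change below the RNA change, so RNA up, footprints down or both follow from the measure. The classes below describe the calls and add no support to them. Fewer genes were called in footprints (16.7%) than in RNA (47%), so footprints not called need not mean footprints unchanged. Of 364 genes called lower and tested at both levels, RNA rose for 188, fell for 44 and was not called for 132, while footprints fell for 222, rose for 1 and were not called for 141. The commonest class, 138 genes, had higher RNA with footprints not called, and 129 had lower footprints with RNA not called. Of 144 genes called higher, RNA fell for 65 and rose for 27, and footprints rose for 90 and were not called for 54. In 63 genes RNA and footprints were both called in opposite directions, 49 with RNA up and footprints down and 14 the reverse. The log2 ratio of footprints to RNA in the 15 clones of the 5 large-subunit genotypes, which share no library with this comparison, had a median of 0.09 for 135 protein-coding genes called higher, -1.29 for 338 called lower and -0.22 for 8826 not called. Over these 9299 genes that ratio and the change in efficiency had a Spearman rho of 0.26, a description across genes, which are not independent replicates.

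**Figure D4:**
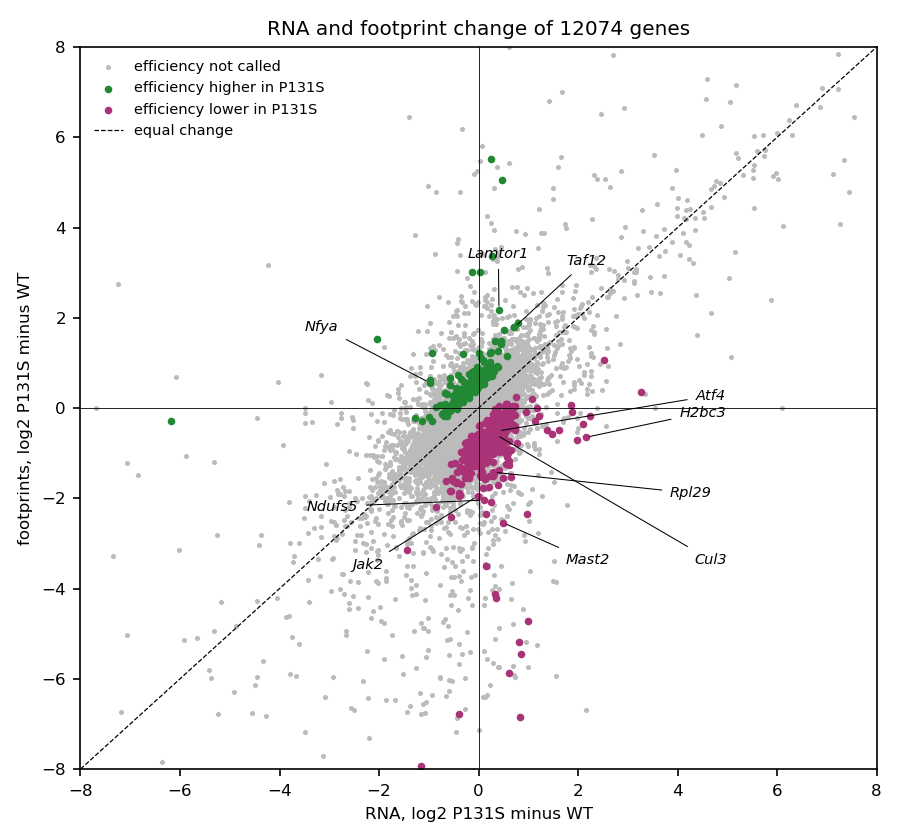
Change in footprints against change in RNA (log2 P131S minus WT) for 12074 genes tested at both levels, with 144 genes of higher efficiency in green, 364 of lower efficiency in purple and the dashed line marking equal change. Efficiency is the footprint change minus the RNA change, so points of lower efficiency lie below the line by construction. In all, 38 genes fall outside the axes.

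Genes with lower efficiency came from many lists. Nuclear oxidative phosphorylation genes gave 1 higher and 2 lower of 92, beside 0.881% higher and 2.26% lower of all genes tested. Ndufs5 (chr4:123712710-123718186), a subunit of complex I, had log2 ratios of footprints to RNA (0.5 CPM added to both) of 2.56, 2.10 and 2.87 in WT and 0.57, 0.30 and 0.25 in P131S (-2.17, SE 0.29, adjusted p = 1.98e-05). RNA of the gene was at 85.7, 83.3 and 81.5 CPM in WT and 92.3, 84.6 and 93.6 CPM in P131S and was not called, and its footprints were at 506, 352 and 597 CPM in WT and 136.9, 104 and 114 CPM in P131S. The call thus lay in footprints, while most genes of its list rose in RNA. Jak2, described above, had ratios of -3.27, -3.13 and -3.11 in WT and -5.35, -4.64 and -5.13 in P131S (-1.95, SE 0.33, adjusted p = 0.000554). Runx3, a transcription factor of blood lineages, had ratios of -2.16, -2.87 and -2.52 in WT and -4.23, -4.01 and -4.68 in P131S (-1.97, SE 0.31, adjusted p = 0.000161). Akt1, the kinase of growth factor signalling, had ratios of -2.45, -3.06 and -3.04 in WT and -3.66, -3.56 and -4.20 in P131S (-0.98, SE 0.17, adjusted p = 0.000675). WT and P131S clones did not overlap for any of the 4. This was a condition for naming genes by the largest change, and it held for 508 of the 520 efficiency calls.

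Several genes of ubiquitin transfer were also lower. Cul3, the scaffold of a ubiquitin ligase family, had ratios of -0.55, -0.52 and -0.49 in WT and -1.45, -1.4 and -1.57 in P131S (-0.96, SE 0.15, adjusted p = 0.000123). Mib1, the ligase that activates Notch ligands, had ratios of -2.38, -2.32 and -2.35 in WT and -3.37, -3.66 and -3.64 in P131S (-1.24, SE 0.15, adjusted p = 6.01e-06), and Ube3b fell by 1.36. These ubiquitin genes were grouped after their values were seen. Among the 49 chromatin regulators, 0 rose and 5 fell in efficiency (2.26% of all genes fell), with falls of 1.11 for the acetyltransferase Crebbp, 1.17 for the remodeller Chd2 and 1.02 for the methyltransferase Dot1l. Of these calls, 6 alternatives ended that of Dot1l, 3 that of Chd2 and 0 that of Crebbp. Eif2d, which delivers initiator transfer RNA without eIF2, fell by 0.82 (SE 0.14, adjusted p = 0.000714).

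Few ribosomal protein genes were called in efficiency: 1 rose and 1 fell of 33 for the small subunit, and 3 rose and 2 fell of 52 for the large. Over all genes tested 0.881% rose and 2.26% fell, and counts this small describe single genes and not the lists. Rpl29 had ratios of -0.84, -0.81 and -0.67 in WT and -2.64, -2.57 and -2.28 in P131S (-1.73, SE 0.27, adjusted p = 0.000148), with footprints of 205, 225 and 262 CPM in WT and 81.5, 79.9 and 97.3 CPM in P131S. Rps6, the target of S6 kinase, had ratios of 1.19, 0.89 and 1.21 in WT and 0.66, 0.40 and 0.69 in P131S (-0.51, SE 0.14, adjusted p = 0.0387), a call that 7 alternatives ended. Rps18 rose by 0.96 (SE 0.23, adjusted p = 0.0145), and Rpl41 by 1.01 (SE 0.29, adjusted p = 0.0465), the latter lost in 8 alternatives. Rps15 itself changed by -0.22 in efficiency (adjusted p = 0.98).

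Genes with higher efficiency also came from several lists. RNA polymerase II, general factors and Mediator gave 3 higher and 4 lower of 83, beside 0.881% higher and 2.26% lower of all genes tested. Nfya (chr17:48386885-48409820), a subunit of the CCAAT-binding factor NF-Y, had ratios of -0.88, -0.96 and -0.72 in WT and 0.38, 0.50 and 0.97 in P131S (1.52, SE 0.19, adjusted p = 6.01e-06). Its RNA fell from 53.3, 52.3 and 49.3 CPM to 26.9, 24.2 and 27.5 CPM, and its footprints rose from 28.6, 26.2 and 29.6 CPM to 35.1, 34.5 and 55.3 CPM, the latter a call that 7 of 13 alternatives ended. Lamtor1 (chr7:101905837-101911903), which anchors the Ragulator complex to lysosomes, had ratios of -2.81, -3.02 and -2.88 in WT and -1.51, -1.37 and -0.92 in P131S (1.74, SE 0.25, adjusted p = 4.59e-05), with footprints of 7.53, 6.64 and 7.11 CPM in WT and 25.6, 27.8 and 42.4 CPM in P131S. Of 25 Ragulator and Rag genes, 2 rose and 1 fell in efficiency, too few calls to describe the list. Taf12 (chr4:132274355-132293329), a subunit of TFIID and SAGA, had ratios of 0.51, 0.49 and 0.85 in WT and 1.4, 1.75 and 1.79 in P131S (1.05, SE 0.18, adjusted p = 0.000626), and footprints of 66.2, 72.5 and 82.5 CPM in WT and 201, 253 and 309 CPM in P131S. Ddx6, the helicase of messenger RNA repression and decay, had ratios of -0.71, -0.46 and -0.41 in WT and 0.16, 0.36 and 0.23 in P131S (0.78, SE 0.12, adjusted p = 0.000134). Gigyf2, its partner in repressing messages with collided ribosomes, rose by 0.62.

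**Figure D5:**
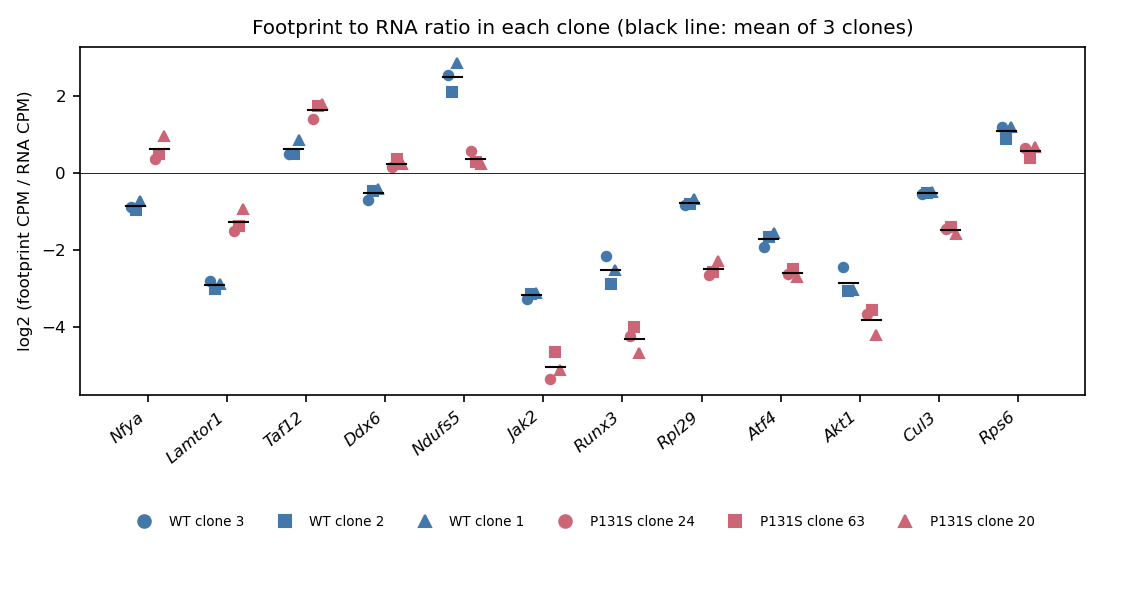
Log2 ratio of footprint CPM to RNA CPM in each clone for 12 genes, with WT and P131S side by side and the mean of 3 clones as a black line. Nfya, Lamtor1, Taf12 and Ddx6 are higher in every P131S clone than in any WT clone, and the other 8, from Ndufs5 to Rps6, are lower.

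Replication-dependent histone genes need a reading of their own, because their messages end in a stem-loop in place of a poly(A) tail and the RNA libraries were selected for poly(A). In RNA 35 of 57 rose and 0 fell (median 1.22), with 17 called after a stricter filter. In footprints 10 of 65 rose and 5 fell (median 0.38), and in efficiency 0 rose and 12 fell of 67 (median -1.12). Under limma voom the efficiency calls of H1f1, H1f3, H2bc7, H2bc12, H2ac21, H3c7, H4c9 and H4f16 were lost. That of H2bc3 was kept in every alternative. H2bc3 was at 0.188, 0.0355 and 0.206 CPM of RNA in WT and 0.683, 0.673 and 0.602 CPM in P131S, while its footprints were at 266, 178 and 179 CPM in WT and 155, 118 and 125 CPM in P131S. H4c9 was at 3.88, 4.44 and 3.98 CPM of RNA in WT and 14.6, 16.0 and 22.1 CPM in P131S (2.10, SE 0.23, adjusted p = 6.86e-07). What the RNA libraries hold of these genes is thus a small remainder, and their efficiency compares footprints with that remainder. Histone genes are also near-identical copies, so reads could be shared among them.

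The last comparison sets P131S directly against H137Y, the other substitution in the same tail, with 3 clones each. Of the genes tested, 3234 were called in RNA (25.2%), 1616 of them higher in P131S, 677 in footprints (4.17%), 362 of them higher, and 113 in efficiency (0.682%), 75 of them higher. In RNA Dmpk was lower in P131S than in H137Y by 3.58 on the log2 scale (adjusted p = 7.41e-05), Itga6 by 3.42 (adjusted p = 5.04e-07), Mylk by 5.40 (adjusted p = 8.92e-06) and Mecom by 1.28 (adjusted p = 3.85e-05). Jund was higher by 0.95 (adjusted p = 1.2e-05), Osm by 1.22 (adjusted p = 0.000488), Jun by 1.03 (adjusted p = 0.000401), Uqcrq by 0.70 (adjusted p = 5.58e-06) and Csf2rb by 0.62 (adjusted p = 0.0444). Atf4 RNA was higher by 0.62 (adjusted p = 0.0048) and Pycr1 by 0.76 (adjusted p = 0.0056), while for Ddit3 the difference was 0.09 (adjusted p = 0.885). Cd200r3 was higher by 3.71 (adjusted p = 0.000821). For S100a8 the difference was 0.28 (adjusted p = 0.866) and for Mmp8 -0.73 (adjusted p = 0.583), neither of them called. In efficiency Ndufs5 was lower in P131S than in H137Y by 1.68 (adjusted p = 0.00192) and Taf12 higher by 1.17 (adjusted p = 0.000595).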

How the data were processed

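RNA-seq and footprint libraries of 24 Ba/F3 clones came as 1 table of estimated counts per Ensembl gene, deposited by the authors without normalization. Per the labels' protocols, each lysate was divided between poly(A)-selected directional RNA-seq and RNase I footprints of 28 to 30 nt depleted of ribosomal RNA. The submitters' processing notes name STAR 2.6.1d, Salmon 1.4.0, DESeq2 1.30 and GRCm38, with no role or order; whether coding regions or whole transcripts were counted, and what was done with reads of more than one origin, is not given in the sources used here. Sharing of reads among copies could move ribosomal protein, histone and stefin genes.

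The expected counts were rounded to whole numbers and filtered with edgeR 4.0.16 in R 4.3.3 (at least 10 counts in a library of median size in 3 libraries, 15 in all). TMM scaling was done within each assay. RNA and footprints were each fitted over all 24 libraries of 8 genotypes (quasi-likelihood test, robust), and efficiency as an interaction over 48 libraries and 16 groups, all adjusted by Benjamini-Hochberg. An SE is the absolute log2 change over the square root of F. Alternatives were DESeq2 1.42.0, DESeq2-type size factors (RLE), limma voom 3.58.1, a filter of 50 counts, no filter, a fit of P131S and WT alone, log ratios per clone, leaving out each clone and, added after seeing the data, total counts. The fits were also run on simulated counts, drawn independently with a fixed dispersion per level. That setting lacks the unequal spread of the genotypes and the pairing of libraries seen here, and no result rests on it. Replicates differed by more than sampling noise (lowest chi-square per degree of freedom 7.09).

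RNA and footprint libraries of a clone come from 1 lysate, so they are paired: over 8441 genes, deviations from group means correlated at 0.226 to 0.696 for the same clone and at -0.601 to 0.054 for different clones of a genotype. WT and P131S clones are not paired.

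Named genes were, per level and direction, the 12 with the largest change at 10 CPM or more (5 CPM for efficiency) among called genes with clones that do not overlap, the 6 with the largest difference in CPM, 4 per class of efficiency and RNA call and 3 per list. Named genes outside that rule, markers aside, are given as picked after their values were seen. The comparison, the 32 lists and the genes were chosen with earlier results of these data known. Gene positions and promoters come from RefSeq tables of GRCm38.p6; 27025 genes have a promoter there. Results for a few genes are not reported here.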

Additional observations from a re-analysis of the deposited data

Results flagged for a closer look

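The named genes given here come from the 63 whose RNA and footprints were called in opposite directions, and all 63 were also called in efficiency. They were chosen by these calls, so passing the interaction test was fixed by the choice and adds no support. The value given for each is the change in footprints minus the change in RNA. With RNA up and footprints down, this difference on the log2 scale was -2.83 for H2bc3, -2.72 for H2bc7, -2.05 for H2bc12 and -1.16 for H1f3, 4 histones whose RNA is selected against. The same direction was seen for the kinase Mast2 (-3.05), the keratin Krt10 (-1.90), the poly(A) polymerase Tent4a (-1.82), the ribosomal protein gene Rpl29 (-1.73), and the zinc-finger genes Zfp850 (-2.21) and Zfp955a (-1.58). It was also seen for the endoplasmic reticulum selenoprotein Selenof (-1.17), the acetyltransferase Crebbp (-1.11), the exportin Xpo6 (-1.08), Cul3 (-0.96), Atf4 (-0.91) and the ubiquitin ligase Rnf10 (-0.86). With RNA down and footprints up, the difference was 1.52 for Nfya, 1.14 for Gcfc2, 0.89 for the hexokinase Hk2, 0.78 for Ddx6, 0.76 for Dcaf7, 0.67 for the spindle protein Spag5 and 0.62 for Gigyf2. Under total counts in place of TMM the footprint calls of Nfya, Ddx6, Dcaf7, Spag5, Gigyf2, Hk2 and Gcfc2 were lost, and so were the RNA calls of H1f3, Krt10, Tent4a, Rpl29, Zfp955a and Atf4. Their efficiency calls were kept under total counts. Counted over all alternatives, total counts included, the footprint call was lost in 9 for Gcfc2 and 8 for Crebbp. The same call was lost in 7 each for Nfya, Hk2, Dcaf7, Spag5 and H1f3, and in 6 each for H2bc12, Zfp850 and Atf4. The RNA call was lost in 9 for H1f3, 7 for Atf4, and 6 each for Gcfc2 and Krt10. The efficiency call was lost in 8 for Gcfc2 and 7 for H1f3. For Xpo6, Cul3, Selenof and H2bc7 no alternative ended the RNA or the footprint call. In the fits that pair the libraries of a clone, the efficiency call of H1f3 was lost with the clone as a replicate block, that of Mast2 with log ratios per clone and that of Gcfc2 with both.

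Of the named genes, 109 were called in RNA both against WT and against H137Y. The 6 given here were chosen from them by the smallest p of the direct test of P131S against H137Y. That they differ by this test was thus fixed by the choice. Lower in P131S were the smooth muscle kinase Mylk (-5.40), Itga6 (-3.42), Mamdc2 (-3.10), the splicing regulator Mbnl1 (-0.91) and the double-stranded RNA kinase Eif2ak2 (-0.68). Higher was Uqcrq (0.70).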

How the results depend on the processing

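The RNA count of 6024 stayed between 5029 and 6235 in all alternatives run. The footprint count of 2707 became 1664 without P131S clone 20, and 1789, 1849 and 2066 without WT clones 1, 3 and 2. In the other alternatives it lay between 2105 with no filter and 3362 by DESeq2, with 2654 without P131S clone 24. The efficiency count of 520 became 908 by DESeq2, 878 from log ratios per clone, 806 with the clone as a replicate block and 320 with no filter. Leaving out 1 clone gave 230 to 448 efficiency calls, the lower values without WT clone 1, WT clone 3, P131S clone 20 and WT clone 2. Fits that leave out 1 clone hold fewer samples, and their counts differed by the clone left out. In RNA these were 5029 without P131S clone 20 and 5951 without P131S clone 24. The cause of the shifts was not tested. No block between WT and P131S clones was possible, since their numbers are not shared. Of the named genes called, 273 to 302 of 303 kept their RNA call, 188 to 244 of 244 their footprint call and 64 to 107 of 107 their efficiency call over the alternatives other than total counts, and 266, 215 and 103 with total counts. Cd3g RNA, picked after its values were seen, went from 6.38 to values between -1.12, without P131S clone 20, and 6.96, without P131S clone 63. Clone 20 is the clone at 12.9 CPM while no other of the 6 exceeded 0.0686 CPM. What depth alone limits was not tested.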

Other observations

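Other lists gave the following values. Of 40 replication factors, 12 rose and 2 fell in RNA (median 0.10), but 4 rose and 10 fell with total counts (median -0.07), and 10 rose and 1 fell in footprints (median 0.27). Of 24 cholesterol synthesis genes, 11 rose and 1 fell in RNA (median 0.19), and 6 rose and 5 fell with total counts. Among them the sterol sensor partner Insig1 rose by 0.91. Of 21 glycolysis genes, 3 rose and 7 fell in RNA (median -0.21), including the glucose transporters Slc2a1 (-0.93) and Slc2a3 (-1.20) and the phosphofructokinase Pfkp (-1.09). Of 10 B-lymphoid genes tested in RNA, 2 rose and 3 fell: Cd79b, a chain of the B-cell receptor complex, by 0.88, the factor Ikzf1 by 0.77 and the kinase Lyn by 0.67. Ragulator and Rag genes gave 5 higher and 7 lower of 25 in RNA.

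Marker lists of other cell types were sparse. In RNA, 0 rose and 3 fell of 6 erythroid markers tested, with summed levels of 103 to 124 CPM in WT and 65.7 to 133 CPM in P131S. Macrophage markers gave 0 higher and 1 lower of 3, with 145 to 172 CPM in WT and 80.1 to 105 CPM in P131S. The T-cell list summed to 0.754 to 1.74 CPM in WT and to 0.835, 0.238 and 13.8 CPM in P131S clones 24, 63 and 20. The fibroblast and epithelial list summed to 0.0377 to 0.213 CPM in WT and 0.114 to 6.09 CPM in P131S, with 1 gene tested. The part of these markers in the results above was not tested.

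In the 250 bases before the RefSeq start, the ETS element CCGGAAG, on either strand, was found in 10 of 25 small-subunit ribosomal protein genes with a promoter in the table (40%) and in 17% of genes tested in RNA. The NRF1 element was found in 13 of 68 nuclear oxidative phosphorylation genes (19.1%) and in 9.88% of genes tested in RNA. Other lists varied too. ETS matches were found in 34.4% of replication factors, 21.1% of large-subunit ribosomal protein genes and 5% of glycolysis genes. NRF1 matches were found in 20% of rescue and decay factors, 19.4% of proteasome subunits and 0% of large-subunit ribosomal protein genes. Neither motif is thus confined to its list. These are matches of letters, given as a description.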
